A study of Mus musculus with 32 samples.

Results

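The 33 genes described here are the immediate early and AP-1 genes of the mouse, taken by name from a list of such genes. They make up 10 groups by role: 4 FOS family genes, 3 JUN family genes, 2 other bZIP factors (Atf3 and Maff), 4 EGR genes, 3 NR4A nuclear receptors, 4 Kruppel-like factors, 3 IER genes, 2 genes named for neuronal activity (Arc and Npas4), 5 feedback inhibitors (Dusp1, Dusp5, Dusp6, Zfp36 and Socs3) and 3 growth arrest genes (Btg2, Gadd45b and Gadd45g). All 33 are listed in each of the 4 raw count tables, which hold 55291 genes for astrocytes, 55291 for oligodendrocytes, 53700 for microglia and 17572 for cultured astrocytes. All 32 libraries came from mice or cells labelled TDP-43_Q331K, a TDP-43 mutation tied to amyotrophic lateral sclerosis, TDP-43 being a nuclear protein that binds RNA, and non-transgenic mice are not analysed here. Astrocytes, sorted with ACSA2 from cortices and spinal cords, were sampled at 3 months (4 libraries), 6 months (5 libraries) and 10 months (2 libraries). Cells of the oligodendrocyte lineage, sorted with O4 from the same tissues, were sampled at 6 months (4 libraries) and 3 months (4 libraries). Microglia, sorted with Cd11b from cortices alone, were sampled at 10 months (4 libraries) and 3 months (3 libraries). Primary astrocytes grown for 14 days were replated and received 40 µM Omomyc for 48 h (3 libraries) or vehicle (3 libraries). Omomyc is a miniprotein that dimerizes with MYC and competes with it for E-box DNA. The labels name no promoter for the transgene and do not say whether animals were pooled or whether replicates came from separate animals or cultures, so the p-values below measure the spread between these libraries, which may be technical. The names of the sorted libraries number them in separate runs for each age. A batch of dissociation or sorting that follows age therefore cannot be told apart from age. Without non-transgenic mice, ageing as such cannot be told apart from an effect of the mutation that changes with age.

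Immediate early genes are transcribed within minutes of a stimulus from factors already present in the cell, chiefly SRF with its ETS partners and CREB, both of which act downstream of MAP kinases and calcium. FOS and JUN proteins dimerize as AP-1 and bind a short palindrome in enhancers, while EGR, NR4A and Kruppel-like factors bind sites of their own. The DUSP phosphatases, Zfp36 and Socs3 are induced in the same wave and shut it down, by dephosphorylating MAP kinases, by removing labile messenger RNA and by blocking cytokine receptors. In brain tissue the same genes mark neuronal firing and glial activation, and they are also induced while cells are dissociated and sorted.

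Library totals ran from 6151583 to 20763190 counts in sorted astrocytes, 9752907 to 18598533 in oligodendrocytes, 4145129 to 5612071 in microglia and 30117025 to 37470972 in cultured astrocytes. Levels are given as CPM, a gene's share of its library's counts on a fixed scale, with TMM scaling within each table. Sums of 10 markers matched the labels in part: the astrocyte sorts held astrocyte markers at 24590 to 37490 CPM at 3 months, with oligodendrocyte markers at 23310 to 36260 CPM in the same libraries. In the oligodendrocyte sorts the oligodendrocyte markers summed to 106600 to 167900 CPM at 6 months and 80090 to 109500 CPM at 3 months. Microglia markers summed to 32500 to 44060 CPM in 10 month microglia and 25170 to 30770 CPM in 3 month microglia. The cultured astrocytes carried microglia markers at 2066 to 3887 CPM with Omomyc and 1801 to 3112 CPM with vehicle, and astrocyte markers at 8508 to 9403 CPM with Omomyc and 8211 to 9946 CPM with vehicle. In sorted bulk samples, fewer cells of a type and less RNA per cell cannot be told apart.

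The promoter windows of 4 members are shown because these genes were called in the most comparisons among those whose window can be shown; of the 5 such genes called in 4 comparisons, Gadd45g had the smallest p. Each window is RefSeq sequence of the GRCm38.p6 build, from 250 bases before to 50 bases after the start that the RefSeq table gives, written 5′ to 3′ along the gene's strand. For Nr4a1 and Zfp36 the whole window lies inside the gene as GENCODE annotates it, so this start is not the most upstream one. Capitals mark every match, on either strand, to the half-site TGACG of the CREB response element, to the EGR site GCGNGGGCG, to the SRF-binding CArG box or to the E-box CACGTG.
Nr4a1 (chr15:101266596-101266895, plus strand): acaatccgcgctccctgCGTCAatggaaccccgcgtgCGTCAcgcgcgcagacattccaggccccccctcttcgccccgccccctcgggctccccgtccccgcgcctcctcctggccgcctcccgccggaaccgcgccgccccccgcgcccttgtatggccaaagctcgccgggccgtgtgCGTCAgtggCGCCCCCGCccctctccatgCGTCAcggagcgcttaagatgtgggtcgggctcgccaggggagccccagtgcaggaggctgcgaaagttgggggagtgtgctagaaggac
Junb (chr8:84978699-84978998, minus strand): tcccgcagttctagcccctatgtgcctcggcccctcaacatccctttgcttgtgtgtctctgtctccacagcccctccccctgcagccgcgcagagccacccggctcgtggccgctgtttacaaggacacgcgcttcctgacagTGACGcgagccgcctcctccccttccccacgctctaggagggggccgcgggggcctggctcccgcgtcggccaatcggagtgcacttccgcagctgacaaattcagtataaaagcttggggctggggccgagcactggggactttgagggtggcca
Zfp36 (chr7:28379179-28379478, minus strand): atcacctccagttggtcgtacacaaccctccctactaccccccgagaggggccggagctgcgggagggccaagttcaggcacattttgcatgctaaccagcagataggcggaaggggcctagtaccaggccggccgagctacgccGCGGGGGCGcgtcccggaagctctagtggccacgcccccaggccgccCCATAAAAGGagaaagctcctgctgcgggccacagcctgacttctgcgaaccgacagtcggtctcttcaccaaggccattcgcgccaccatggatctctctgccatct
Gadd45g (chr13:51846425-51846724, plus strand): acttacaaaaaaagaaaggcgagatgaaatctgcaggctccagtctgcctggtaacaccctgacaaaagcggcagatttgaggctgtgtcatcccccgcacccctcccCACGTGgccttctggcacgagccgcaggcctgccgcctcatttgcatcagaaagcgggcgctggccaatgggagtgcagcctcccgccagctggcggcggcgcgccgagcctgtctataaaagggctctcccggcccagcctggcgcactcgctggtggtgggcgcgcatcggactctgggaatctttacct
The Nr4a1 window holds 4 half-sites and 1 EGR site. The Junb window holds 1 half-site, the Zfp36 window an EGR site and a CArG box, and the Gadd45g window an E-box 142 to 137 bases before the table's start. Of the 33 members, 27 had at least 1 window in the table; Fosl1, Egr1, Egr3, Klf10, Ier2 and Arc had none. The half-site, a motif added after the printed windows had been read, was present in 16 of these 27 members and in 20.8% of the 32851 windows of all genes. The EGR site was present in 11 members and in 5.55% of all windows, the E-box in 7 members and in 7.15%. The CArG box was present in 3 members (Dusp5, Egr2 and Zfp36) and in 1.63% of all windows, and the full response element TGACGTCA, which holds 2 overlapping half-sites, in 3 members (Btg2, Dusp1 and Maff) and in 1.79%. The AP-1 site TGANTCA was present in 0 of the 27 members and in 7.81% of all windows. These percentages are of windows, and some members had more than 1 window. Counted by window, the half-site was in 19 of the members' 33 windows, the EGR site in 11 and the E-box in 7. In the same count the CArG box was in 6, the full element in 3 and the AP-1 site in 0. A match is a stretch of letters in this window and not a bound site.

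Between genes, levels can be compared per length with the deposited TPM values of the sorted astrocytes and oligodendrocytes. Fos and Jun, the founding partners of AP-1, were the highest members in every group. In astrocytes Fos had a mean of 179.6 ± 27.8 TPM at 3 months (SD, n = 4), 201 ± 87.7 TPM at 6 months (SD, n = 5) and 525 ± 120.3 TPM at 10 months (SD, n = 2). Jun had a mean of 161 ± 14.2 TPM at 3 months, 159 ± 26.1 TPM at 6 months and 332 ± 23.2 TPM at 10 months in the same libraries. At 3 months the Fos and Jun values in astrocytes lay within the sum of their SDs of each other. In oligodendrocytes Fos had a mean of 1114 ± 222 TPM at 6 months and 698 ± 54.0 TPM at 3 months (SD, n = 4 each), above Jun at 376 ± 92.2 TPM at 6 months and 444 ± 42.3 TPM at 3 months. The next members were Arc and Egr1 in 3 month astrocytes, at 66.1 ± 12.3 and 56.2 ± 12.9 TPM, which did not differ beyond their SDs. In 10 month astrocytes Egr1 held the third place at 179 ± 35.3 TPM and Gadd45g the next at 119 ± 14.1 TPM. Junb at 114 ± 2.03 TPM and Dusp1 at 106 ± 5.55 TPM each lay within the sum of the SDs of Gadd45g.

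**Figure D1:**
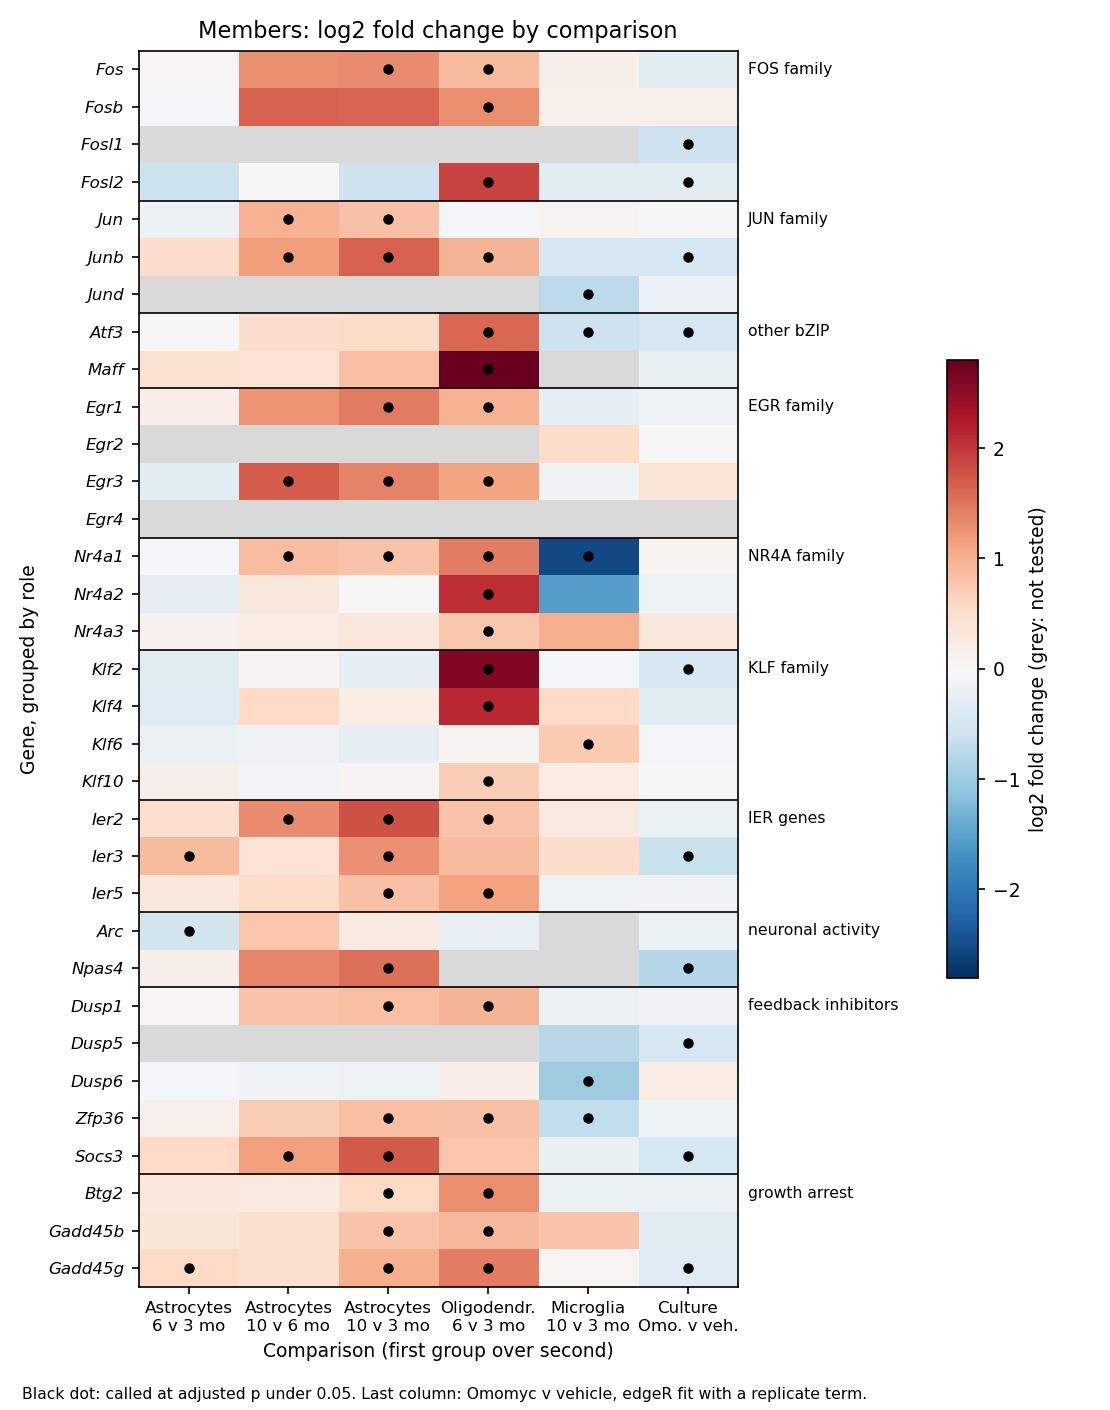
Log2 fold change (colour, red for higher and blue for lower in the first named group) of the 33 members, in rows grouped by role, in 6 comparisons, in columns. Black dots mark members past an edgeR adjusted p of 0.05 and grey cells were not tested; 16 members carry a dot in astrocytes at 10 against 3 months, 21 in oligodendrocytes at 6 against 3 months, and in microglia 5 of the 6 dots are on lower members.

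In sorted astrocytes, JUN, EGR, IER and growth arrest genes were higher at 10 months than at 3 months, and the Kruppel-like factors were not called. Of the 28 members that passed the filter on low counts, 16 were called higher and 0 lower in the 10 against 3 month comparison by edgeR's quasi-likelihood test with Benjamini-Hochberg adjustment over all genes (adjusted p under 0.05); at an unadjusted p under 0.05, 17 were higher and 1 lower, and DESeq2 called 16 higher and 0 lower. Among all 16189 genes tested, 11.5% were called higher and 11.2% lower, and the median log2 fold change was 0.82 for the members and 0.02 for all genes. Both JUN genes tested, both EGR genes tested, all 3 IER genes and all 3 growth arrest genes were called higher. So were 3 of 4 feedback inhibitors tested, 1 of 3 FOS genes, 1 of 3 NR4A genes and Npas4, and 0 of 4 Kruppel-like factors. Fosl1, Jund, Egr2, Egr4 and Dusp5 did not pass the filter. The 10 month group held 2 libraries: 6 members were called higher without its replicate 1 and 10 without its replicate 2.

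Fos, the FOS subunit of AP-1, had 126, 131, 149 and 102 CPM at 3 months, 90.7, 55.8, 145, 149 and 200.4 CPM at 6 months and 264 and 369 CPM at 10 months. Both 10 month libraries lay above the 9 younger ones, whose 2 ages overlapped. Its log2 fold change at 10 against 3 months was 1.32 ± 0.38 (edgeR adjusted p = 0.0321), a call lost in 5 of the 6 fits that left out 1 library of either age. Jun, the JUN subunit of AP-1, had 159, 137, 173 and 148 CPM at 3 months, 145, 101, 143, 154 and 146 CPM at 6 months and 257 and 286 CPM at 10 months. The 10 month libraries again stood above all others, and the log2 fold change over 3 months was 0.82 ± 0.14 (edgeR adjusted p = 0.00101). Junb, a JUN protein with weaker activation than Jun, had 14.0, 22.8, 20.2 and 11.8 CPM at 3 months, 30.1, 16.2, 25.5, 22.2 and 23.3 CPM at 6 months and 51.9 and 53.6 CPM at 10 months. Its log2 fold change over 3 months was 1.65 ± 0.22 (edgeR adjusted p = 0.000303), with no overlap between the ages. Fosb, another FOS subunit, differed by 1.62 ± 0.58 on the log2 scale and did not pass the test (edgeR adjusted p = 0.0796).

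Egr1, a zinc finger factor induced through SRF, had 73.3, 89.7, 86.7 and 52.8 CPM at 3 months, 66.5, 31.9, 88.4, 92.5 and 146 CPM at 6 months and 176 and 235 CPM at 10 months. The 10 month libraries lay above all others, with a log2 fold change over 3 months of 1.45 ± 0.43 (edgeR adjusted p = 0.0371) that lost its call in 5 of 6 fits without 1 library. Egr3, its relative at a low level, had 1.51, 1.36, 2.17 and 1.09 CPM at 3 months, 1.20, 0.320, 1.36, 1.24 and 1.52 CPM at 6 months and 3.75 and 3.99 CPM at 10 months, a log2 fold change over 3 months of 1.39 ± 0.37 (edgeR adjusted p = 0.013). Nr4a1, an orphan nuclear receptor, had 17.3, 22.1, 21.5 and 30.4 CPM at 3 months, 27.7, 16.5, 22.2, 22.8 and 21.8 CPM at 6 months and 37.4 and 43.0 CPM at 10 months. Replicate 4 was the highest of the 3 month libraries and still lay below both 10 month ones, and the log2 fold change was 0.80 ± 0.19 (edgeR adjusted p = 0.00674). Its relatives Nr4a2 and Nr4a3 differed by 0.02 ± 0.40 and 0.33 ± 0.20 on the log2 scale and were not called (edgeR adjusted p = 0.979 and 0.263).

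Ier2, a short-lived nuclear protein, had 6.15, 7.06, 6.25 and 5.14 CPM at 3 months, 9.14, 3.69, 9.29, 9.82 and 8.77 CPM at 6 months and 16.6 and 24.9 CPM at 10 months. This was the largest log2 fold change among the called members, 1.78 ± 0.26 over 3 months (edgeR adjusted p = 0.000353). Ier3, a stress-induced survival gene, had 1.62, 2.17, 2.31 and 1.61 CPM at 3 months, 4.65, 3.37, 3.16, 3.12 and 3.38 CPM at 6 months and 4.93 and 4.17 CPM at 10 months. Here the 6 month libraries already lay above all 3 month ones, and the log2 fold change at 10 against 3 months was 1.27 ± 0.28 (edgeR adjusted p = 0.004). Socs3, the brake on JAK and STAT3 signalling, had 4.64, 6.38, 5.03 and 4.52 CPM at 3 months, 7.94, 4.49, 7.62, 7.35 and 9.45 CPM at 6 months and 17.8 and 15.5 CPM at 10 months. Its adjusted p was the smallest of the members, with a log2 fold change over 3 months of 1.71 ± 0.22 (edgeR adjusted p = 0.000192).

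Gadd45g, a stress sensor that activates p38 and JNK kinases upstream, had 14.8, 22.7, 17.9 and 16.6 CPM at 3 months, 30.6, 27.9, 28.9, 27.4 and 16.4 CPM at 6 months and 32.7 and 39.0 CPM at 10 months. Replicate 5 was the lowest at 6 months and fell in the 3 month range; the 10 month libraries lay above all others, with a log2 fold change over 3 months of 1.01 ± 0.20 (edgeR adjusted p = 0.00259). Gadd45b, its relative, had 6.69, 8.55, 8.15 and 6.64 CPM at 3 months, 10.6, 6.57, 9.23, 9.88 and 10.2 CPM at 6 months and 13.2 and 12.5 CPM at 10 months. It changed by 0.79 ± 0.19 on the log2 scale at 10 against 3 months (edgeR adjusted p = 0.00808). The other called members, with log2 fold changes over 3 months, were Npas4 (1.53), Zfp36 (0.83), Dusp1 (0.83), Ier5 (0.83) and the antiproliferative gene Btg2 (0.57). Klf6, the Kruppel-like factor with the most negative value, had 50.5, 50.9, 60.0 and 46.9 CPM at 3 months and 45.2 and 40.4 CPM at 10 months, and was not called (edgeR adjusted p = 0.112). Jun, Junb, Ier2, Socs3 and Gadd45g kept their calls in each of the 6 fits that left out 1 library of these 2 ages.

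**Figure D2:**
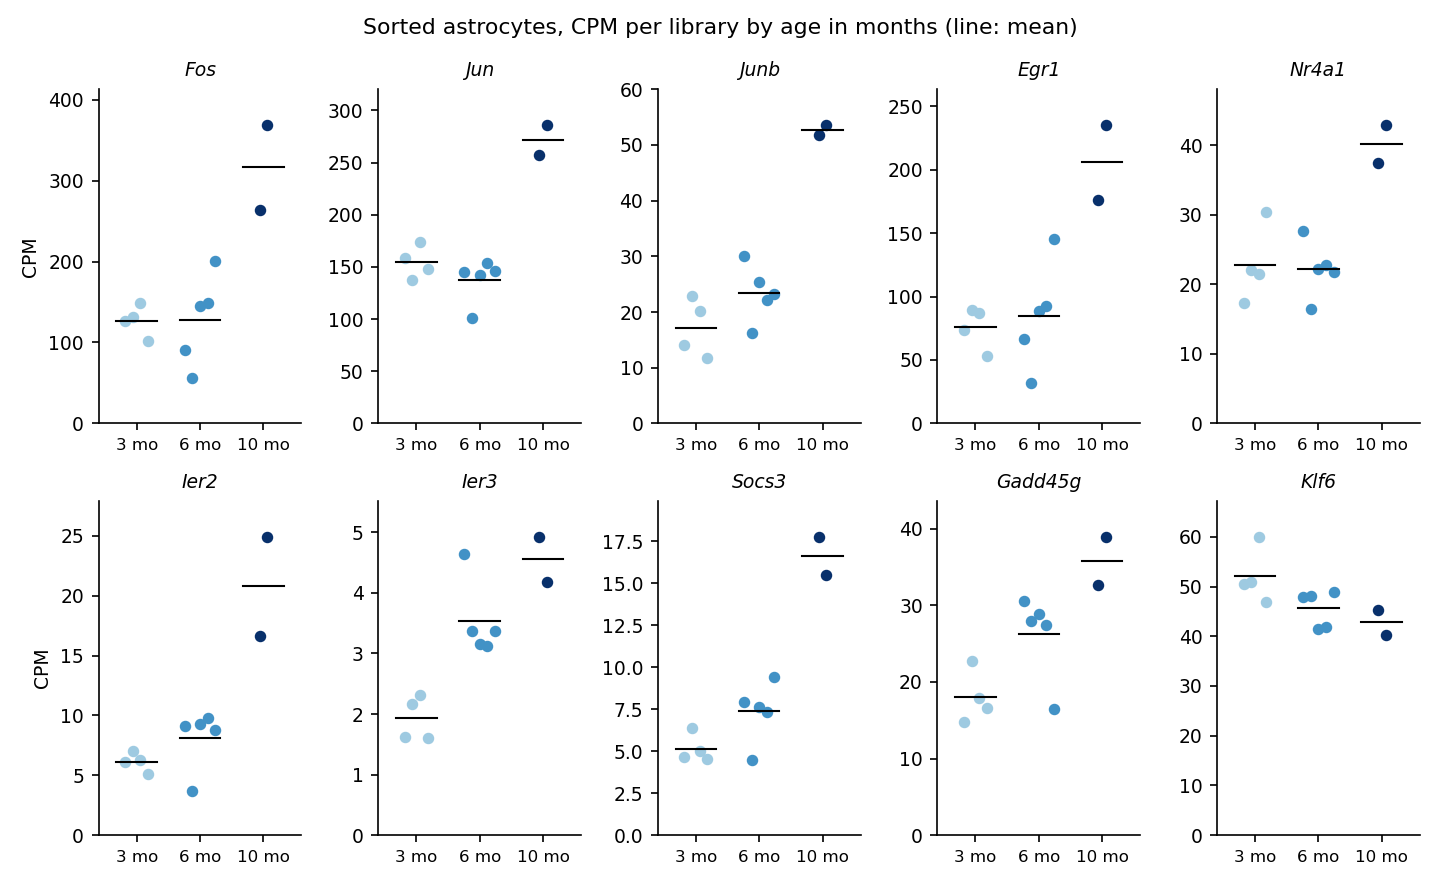
TMM-scaled CPM (vertical axes, own scale for each gene) of 10 members in every sorted astrocyte library at 3, 6 and 10 months; points are libraries and lines are group means. Both 10 month libraries lie above all younger ones for Fos, Jun, Junb, Egr1, Nr4a1, Ier2, Socs3 and Gadd45g, while Klf6 has 45.2 and 40.4 CPM at 10 months.

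The 6 month libraries allow each step in age to be compared, although the 3 age comparisons share libraries and are not independent. At 10 against 6 months, 6 members were called higher and 0 lower by edgeR (17 and 0 at an unadjusted p under 0.05, 9 and 0 by DESeq2), against 0.574% and 0.334% of all genes. These were Jun (0.98 ± 0.13, adjusted p = 0.00754), Socs3 (1.15 ± 0.21, adjusted p = 0.0162), Ier2 (1.32 ± 0.24, adjusted p = 0.0182), Junb (1.17 ± 0.21, adjusted p = 0.019), Egr3 (1.69 ± 0.35, adjusted p = 0.0316) and Nr4a1 (0.85 ± 0.18, adjusted p = 0.0321), each as edgeR's log2 fold change. Fos and Egr1 had log2 fold changes of 1.29 ± 0.36 and 1.26 ± 0.41 at 10 against 6 months and were not called (edgeR adjusted p = 0.115 and 0.164). Without 10 month replicate 2 the count was 0, and without replicate 1 it was 3.

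At 6 against 3 months, 2 members were called higher and 1 lower by edgeR, against 6.28% and 8.29% of all genes, and the members' median log2 fold change was 0.08. Ier3 (0.89 ± 0.23, adjusted p = 0.0167) and Gadd45g (0.55 ± 0.16, adjusted p = 0.0336) were higher at 6 months, and Arc, a postsynaptic protein named for neuronal activity, was lower (-0.52 ± 0.15, adjusted p = 0.0294). Arc had 70.5, 43.2, 65.2 and 64.6 CPM at 3 months, 40.8, 45.2, 45.0, 48.4 and 32.6 CPM at 6 months and 57.5 and 87.2 CPM at 10 months, and the 6 and 3 month ranges overlapped. Leaving out 1 library moved these counts: higher members numbered 0 without 3 month replicate 4, 4 without 3 month replicate 2 and 5 without 6 month replicate 2. They numbered 1 without 3 month replicate 1, without 3 month replicate 3, and without any of 6 month replicates 1, 3 and 4. Lower members numbered 0 without any of 3 month replicates 1, 3 and 4, and without either of 6 month replicates 1 and 3. Values for Fos, Jun, Junb and Egr1 at 6 against 3 months were 0.03 ± 0.31, -0.16 ± 0.11, 0.48 ± 0.19 and 0.19 ± 0.35 on the log2 scale, with edgeR adjusted p of 0.965, 0.364, 0.0926 and 0.763 in that order.

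Other genes of the same pathways were called in both directions in astrocytes at 10 against 3 months. There edgeR called 7 of 29 other primary response genes higher and 4 lower, with a median log2 fold change of -0.065; the smallest p-values were those of Cebpb (1.49 ± 0.30, adjusted p = 0.0025), Homer1 (-0.74 ± 0.16, adjusted p = 0.00358) and Ppp1r15a (0.63 ± 0.14, adjusted p = 0.00552). Of 30 MAP kinase, SRF and CREB inputs, 5 were higher and 10 lower (median -0.155), among them Srf (0.67 ± 0.12, adjusted p = 0.00149) and Creb1 (-0.84 ± 0.15, adjusted p = 0.00136). Of 9 other bZIP partners of AP-1, 2 were higher and 2 lower (median 0.32), and of 15 other MAP kinase feedback inhibitors 1 was higher and 4 lower (median -0.286). Of 12 heat shock chaperones, 0 were called in either direction at 10 against 3 months by edgeR (0 at an unadjusted p under 0.05, and 0 by DESeq2). At 6 against 3 months edgeR called 7 of them lower and 0 higher (9 and 0 at an unadjusted p under 0.05, 6 and 0 by DESeq2), with the smallest p for Hspa8 (-0.96 ± 0.15, adjusted p = 0.00109).

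Markers of other cell types were summed in the same libraries. Microglia markers summed to 219 and 263 CPM at 10 months and 257, 217, 252 and 287 CPM at 3 months, and 3 of the 9 tested were called higher. Endothelial markers summed to 209 and 124 CPM at 10 months and 208, 364, 388 and 386 CPM at 3 months, with 4 of 10 called lower and 0 higher by edgeR. Oligodendrocyte precursor markers summed to 2532 and 2437 CPM at 10 months and 1750, 1905, 1474 and 1326 CPM at 3 months. By edgeR, 2 of 6 were called higher, Neu4 (1.49 ± 0.42, adjusted p = 0.0177) and Bcan (0.63 ± 0.16, adjusted p = 0.0104). Pdgfra, Cspg4, Vcan and Gpr17 were not called. Bcan was itself higher in astrocytes than in oligodendrocyte lineage cells (4.05 ± 0.16, adjusted p = 1.83e-14, edgeR), so this sum is not one of precursor cells alone. Neuron markers summed to 85.6 and 99.3 CPM at 10 months and 91.2, 98.7, 102 and 85.6 CPM at 3 months. The locus CT010467.1 held a mean of 0.266% of counts at 10 months and 3.10% at 3 months. The part of these shifts in the members' values was not tested, apart from a fit without CT010467.1, Lars2, Malat1 and mitochondrial genes, which called 16 members higher.

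In O4-sorted oligodendrocyte lineage cells, 21 of the 27 members tested were called higher at 6 months than at 3 months and 0 lower (edgeR; 22 and 0 at an unadjusted p under 0.05, and 22 and 0 by DESeq2). Among the 14050 genes tested, 14.9% were called higher and 9.46% lower. The members' median log2 fold change was 0.96, against 0.02 for all genes. All 3 FOS genes tested, both EGR genes tested, all 3 NR4A genes, Atf3, Maff, all 3 growth arrest genes and 3 of 4 Kruppel-like factors were called. Jun, Klf6, Ier3, Arc, Dusp6 and Socs3 were not, and Npas4 joined the 5 genes untested in astrocytes.

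Fos had 689, 703, 966 and 769 CPM at 6 months and 386, 438, 452 and 425 CPM at 3 months. All 6 month libraries lay above all 3 month ones, with a log2 fold change of 0.88 ± 0.12 (edgeR adjusted p = 0.000709). Fosl2, a FOS-related AP-1 subunit, had 5.18, 8.48, 8.71 and 9.39 CPM at 6 months and 1.88, 2.51, 1.995 and 2.16 CPM at 3 months. Its groups did not overlap, and its log2 fold change was 1.88 ± 0.22 (edgeR adjusted p = 0.000377). Junb had 104, 119, 137 and 107 CPM at 6 months and 50.5, 63.6, 63.5 and 62.1 CPM at 3 months, a log2 fold change of 0.96 ± 0.11 (edgeR adjusted p = 0.00037). Jun, by contrast, had 295, 331.1, 469 and 336 CPM at 6 months and 359, 389, 392 and 326 CPM at 3 months. The Jun groups overlapped, with the highest Jun value in 6 month replicate 3, and its log2 difference was -0.03 ± 0.14 (edgeR adjusted p = 0.879).

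Egr1 had 416, 429, 571 and 488 CPM at 6 months and 187, 288, 243 and 247 CPM at 3 months, without overlap, a log2 fold change of 0.98 ± 0.14 (edgeR adjusted p = 0.00117). Nr4a1 had 94.6, 102, 138 and 117 CPM at 6 months and 31.0, 48.9, 40.3 and 47.8 CPM at 3 months. Its lowest 6 month library was 94.6 CPM and its highest 3 month library 48.9 CPM, and the log2 fold change was 1.43 ± 0.16 (edgeR adjusted p = 0.000394). Klf2, a Kruppel-like factor known for its induction by blood flow in endothelium, had 30.1, 31.9, 51.6 and 37.7 CPM at 6 months and 4.66, 4.00, 8.03 and 8.35 CPM at 3 months. Klf4, which shares that background, had 25.5, 41.6, 61.4 and 36.5 CPM at 6 months and 8.34, 9.39, 10.0 and 10.3 CPM at 3 months. Neither gene's groups overlapped, and their log2 fold changes were 2.60 ± 0.27 and 2.12 ± 0.24 (edgeR adjusted p = 0.000397 and 0.000542). Dusp1, a phosphatase of p38 and JNK, had 131, 102, 164 and 121 CPM at 6 months and 56.9, 74.6, 68.8 and 67.0 CPM at 3 months, also without overlap (0.95 ± 0.14, adjusted p = 0.00133, edgeR log2 fold change).

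The other called members spanned log2 fold changes of 0.69 for Klf10 to 2.76 for Maff. Maff, a small MAF protein with no activation domain, had 11.6, 1.998, 1.19 and 2.08 CPM at 6 months and 0.347, 0.564, 0.819 and 0.696 CPM at 3 months, so replicate 1 alone was far above the other libraries. Nr4a2 (2.07), Atf3 (1.60), Gadd45g (1.44), Btg2 (1.297) and Fosb (1.296) followed Maff in log2 fold change. Ier5 (1.13), Egr3 (1.10), Gadd45b (0.91), Zfp36 (0.83), Ier2 (0.80) and Nr4a3 (0.75) lay between 0.75 and 1.13. Maff and Nr4a2 did not reach the level of the low-count filter in every 3 month library. Both passed it through 6 month libraries, the group where they were higher, so their calls are not independent of the filter. Both are counted among the called members above. With 1 library left out, 15 to 20 members were called higher; Atf3 and Klf10 each lost the call in 6 of 8 such fits, Nr4a3 in 5, Maff in 4, Egr3 in 3 and Ier2 in 1.

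Vascular markers moved in the same direction in these libraries. The 10 endothelial markers summed to 272, 495, 747 and 567.9 CPM at 6 months and 72.5, 90.8, 71.7 and 86.1 CPM at 3 months, and all 10 were called higher. Mural and fibroblast markers summed to 227 to 459 CPM at 6 months and 54.3 to 107 CPM at 3 months, with 5 of 7 tested called higher, and 6 of 10 neuron markers were also called higher. The mitochondrial share of counts was 6.41 to 10.1% at 6 months and 4.06 to 4.44% at 3 months. Replicate 3 of the 6 month group had the highest endothelial sum and also the highest Fos, Jun, Junb, Egr1, Nr4a1, Klf2 and Klf4 values. Not all members followed this order. Fosl2, Atf3 and Maff were highest in other 6 month replicates, Maff in the one with the lowest endothelial sum of that age (272 CPM). Without CT010467.1, Lars2, Malat1 and mitochondrial genes, 21 members were again called higher. The part of the vascular markers in the members' values was not tested.

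**Figure D3:**
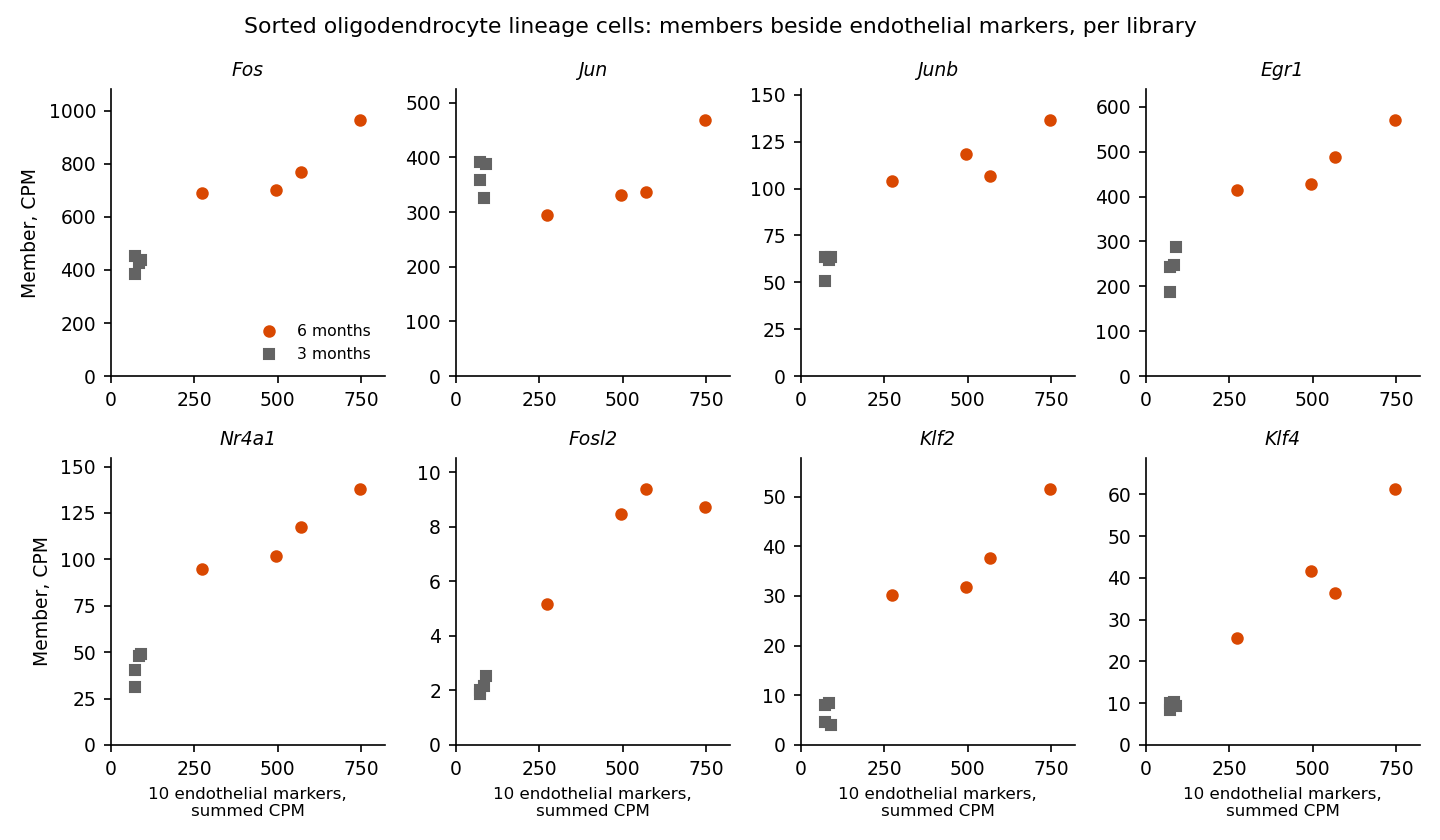
TMM-scaled CPM of 8 members (vertical axes) against the summed CPM of 10 endothelial markers (horizontal axis) in each oligodendrocyte lineage library, circles for 6 months and squares for 3 months. The 6 month libraries lie to the right, at 272 to 747 CPM of endothelial markers, and above the 3 month libraries for every gene plotted but Jun.

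Pathway genes outside the 33 followed in part. Of 29 other primary response genes tested in oligodendrocytes, 13 were higher and 2 lower at 6 months (median log2 fold change 0.73), with the smallest p-values for Ptgs2 (2.09 ± 0.25, adjusted p = 0.000415), Ccn1 (2.42 ± 0.28, adjusted p = 0.000614) and Plk2 (1.39 ± 0.23, adjusted p = 0.00221). Of 29 MAP kinase, SRF and CREB inputs 6 were higher and 4 lower (median 0.09), among them Elk3 (1.68 ± 0.27, adjusted p = 0.00205), an ETS partner of SRF, and Mapk10 (-0.69 ± 0.14, adjusted p = 0.00629), which encodes JNK3. Of 7 other bZIP partners 1 was higher (Mafk, 0.97 ± 0.14, adjusted p = 0.00115) and 0 lower, of 14 other feedback inhibitors 0 were higher and 1 lower (Spry2, -0.88 ± 0.16, adjusted p = 0.00362), and of 12 chaperones 1 was higher (Hspb1, 2.75 ± 0.40, adjusted p = 0.00152) and 0 lower, all as edgeR log2 fold changes.

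Set side by side in 1 fit of the 17 libraries of 3 and 6 months, most members were lower in astrocytes than in oligodendrocyte lineage cells. Of 28 members tested, 5 were called higher in astrocytes and 19 lower, with a median log2 fold change of -0.77, against 38.7% and 35.9% of the 16363 genes tested. Fos had a lowest, median and highest value of 50.05, 118 and 183 CPM in astrocytes (n = 9) and 439, 636 and 1054 CPM in oligodendrocytes (n = 8). Junb had 10.2, 20.1 and 26.8 CPM in astrocytes and 57.4, 94.1 and 149 CPM in oligodendrocytes in the same terms. Neither gene's ranges overlapped, and the log2 fold changes of astrocytes over oligodendrocytes were -2.50 ± 0.19 and -2.40 ± 0.13 (edgeR adjusted p = 1.69e-09 and 2.14e-12). Jun had 90.5, 129 and 154 CPM in astrocytes and 324, 389 and 511 CPM in oligodendrocytes (-1.64 ± 0.10, adjusted p = 2.23e-12, edgeR). Egr1 had 28.6, 76.8 and 133 CPM in astrocytes and 213, 396 and 623 CPM in oligodendrocytes (-2.40 ± 0.22, adjusted p = 5.45e-08, edgeR). Jun and Egr1 were thus lower in astrocytes as well, without overlap. Nr4a1 had 14.8, 19.9 and 26.4 CPM in astrocytes and 35.2, 80.3 and 151 CPM in oligodendrocytes, and Arc 29.8, 40.6 and 62.6 CPM in astrocytes and 93.6, 135 and 184 CPM in oligodendrocytes. Zfp36 had 19.6, 30.9 and 45.4 CPM in astrocytes and 66.2, 101 and 166 CPM in oligodendrocytes, and Ier2 3.31, 6.34 and 8.89 CPM in astrocytes and 18.5, 26.1 and 52.5 CPM in oligodendrocytes. These 4 also had separate ranges, with log2 fold changes of -1.93 for Nr4a1, -1.58 for Arc, -1.75 for Zfp36 and -2.15 for Ier2.

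The 5 members higher in astrocytes were Dusp6, Nr4a3, Gadd45g, Ier5 and Npas4. Dusp6, a phosphatase specific for ERK, had a lowest, median and highest value of 26.9, 32.5 and 38.3 CPM in astrocytes and 1.75, 3.45 and 5.20 CPM in oligodendrocytes, a log2 fold change of 3.13 ± 0.16 (edgeR adjusted p = 5.51e-13). Nr4a3 had 20.0, 25.8 and 40.1 CPM in astrocytes and 2.92, 4.34 and 8.17 CPM in oligodendrocytes (2.64 ± 0.15, adjusted p = 1.75e-12, edgeR), opposite in sign to its relative Nr4a1. Gadd45g had 13.1, 20.4 and 27.2 CPM in astrocytes and 2.10, 4.66 and 11.96 CPM in oligodendrocytes (1.88 ± 0.16, adjusted p = 9.38e-10, edgeR), also without overlap. Ier5 had 10.0, 15.3 and 22.5 CPM in astrocytes and 3.16, 4.79 and 10.7 CPM in oligodendrocytes, and their ranges overlapped by a little. Npas4, a neuronal bHLH factor, had 0.383, 0.666 and 1.10 CPM in astrocytes and 0, 0.240 and 0.358 CPM in oligodendrocytes. The log2 fold changes were 1.495 ± 0.15 for Ier5 and 1.70 ± 0.34 for Npas4 (edgeR adjusted p = 7.53e-09 and 0.000132). The cell types were deposited in separate count tables from the same library kit, so a difference between tables other than the cell type cannot be told apart from it.

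The same fit tested whether the change from 3 to 6 months differed between the cell types. The difference of the age effects, astrocytes minus oligodendrocytes, was called lower for 8 of 28 members and higher for 0 by edgeR (14 and 0 at an unadjusted p under 0.05, 10 and 0 by DESeq2), against 9.97% and 6.44% of all genes. It was negative for 27 of 28 members, with a median of -0.73, against a median of 0.02 over all genes. In the same difference 10 of 10 endothelial markers were called lower, Pecam1 among them (-3.34 ± 0.37, adjusted p = 3.26e-05), as were 7 of 9 mural and fibroblast markers and 6 of 10 neuron markers, while 5 of 10 microglia markers were called higher. The part of these markers in the members' values was not tested. The called members were Fosl2 (-2.39 ± 0.29, adjusted p = 3.36e-05), Klf2 (-2.84 ± 0.38, adjusted p = 0.000113), Klf4 (-2.39 ± 0.34, adjusted p = 0.000138), Nr4a1 (-1.39 ± 0.24, adjusted p = 0.000628), Nr4a2 (-2.25 ± 0.53, adjusted p = 0.00661), Btg2 (-0.92 ± 0.25, adjusted p = 0.0165), Dusp1 (-0.83 ± 0.25, adjusted p = 0.0328) and Atf3 (-1.50 ± 0.48, adjusted p = 0.0414), as edgeR log2 differences. Sorted astrocytes had 15.1, 9.93, 17.1, 9.10 and 10.6 CPM of Klf2 at 6 months and 9.71, 12.2, 18.1 and 21.4 CPM at 3 months, and 19.0, 9.13, 14.1, 9.36 and 10.2 CPM of Klf4 at 6 months and 11.3, 17.0, 18.1 and 16.7 CPM at 3 months. Fosl2 in astrocytes had 4.497, 2.88, 3.59, 2.99 and 4.64 CPM at 6 months and 4.53, 5.43, 5.98 and 6.44 CPM at 3 months. The astrocyte ages overlapped for all 3 genes, whose oligodendrocyte values above did not. For Fos, Junb and Egr1 the differences were -0.76 ± 0.36, -0.39 ± 0.25 and -0.70 ± 0.43, and none of them passed the test (edgeR adjusted p = 0.168, 0.308 and 0.293). Nr4a2 had 1.80, 1.60, 1.80, 2.41 and 3.71 CPM at 6 months and 1.19, 3.39, 4.08 and 2.75 CPM at 3 months in astrocytes, and 2.10, 5.09, 6.48 and 6.33 CPM at 6 months and 0.625, 1.08, 1.59 and 1.39 CPM at 3 months in oligodendrocytes. Btg2 had 36.4, 23.4, 33.3, 34.4 and 37.1 CPM at 6 months and 26.2, 28.0, 32.1 and 22.6 CPM at 3 months in astrocytes, and 34.6, 43.7, 60.7 and 43.5 CPM at 6 months and 14.4, 19.2, 24.1 and 16.2 CPM at 3 months in oligodendrocytes. As with the Kruppel-like factors, the astrocyte ages overlapped and the oligodendrocyte ages were apart. Dusp1 had 55.6, 31.4, 54.3, 49.0 and 67.6 CPM at 6 months and 47.0, 47.2, 64.4 and 44.7 CPM at 3 months in astrocytes. Atf3 had 5.10, 4.17, 5.14, 5.66 and 6.24 CPM at 6 months and 3.99, 4.21, 7.34 and 5.50 CPM at 3 months in astrocytes, and 4.05, 17.3, 14.3 and 10.7 CPM at 6 months and 3.47, 2.72, 6.24 and 2.71 CPM at 3 months in oligodendrocytes, overlapping in both. Dusp1 lost its call in 5 of 17 fits without 1 library and Atf3 in 12 of 17.

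In microglia few members were called, and most of those that were called were lower at the later age. At 10 against 3 months, 5 of 28 members tested were called lower and 1 higher (edgeR; 7 and 3 at an unadjusted p under 0.05, 5 and 3 by DESeq2), against 1.27% and 1.94% of the 12320 genes tested. The members' median log2 fold change was -0.12. Fosl1, Maff, Egr4, Arc and Npas4 did not pass the filter. Without 1 library, 2 to 5 members were called lower: 2 without 10 month replicate 1, and 3 without either of 10 month replicates 3 and 4 and without 3 month replicate 1. The count of higher members was 0 without any of 10 month replicates 1, 3 and 4 and without either of 3 month replicates 1 and 3, and 3 without 10 month replicate 2. Microglia libraries were made from 3' ends, so a CPM here is not set beside the CPM of the other tables as a level.

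Nr4a1, whose protein restrains inflammatory genes in myeloid cells, had 23.1, 27.1, 21.0 and 43.0 CPM at 10 months and 271, 86.7 and 138 CPM at 3 months. Replicate 1 was the highest of the 3 month libraries, and the lowest of them was still above every 10 month library. The log2 fold change was -2.53 ± 0.35 (edgeR adjusted p = 0.00706), and it was called in each fit without 1 library. Jund, the JUN subunit with the steadiest expression in most cells, had 1068, 1092, 1253 and 836 CPM at 10 months and 1628, 1826 and 1871 CPM at 3 months, a log2 fold change of -0.74 ± 0.13 (edgeR adjusted p = 0.00896) with no overlap and no lost call. Dusp6 had 183, 247, 172 and 309 CPM at 10 months and 510.4, 353 and 500.3 CPM at 3 months (-0.997 ± 0.19, adjusted p = 0.0117, edgeR log2 fold change). Its highest 10 month library, replicate 4, lay close below the lowest 3 month library. Atf3, a stress-induced repressor, had 1747, 1689, 1598 and 1339 CPM at 10 months and 2518, 2587 and 2054 CPM at 3 months (-0.58 ± 0.12, adjusted p = 0.0188). Zfp36, which removes cytokine messages, had 482, 519, 446 and 556 CPM at 10 months and 1079, 628 and 709 CPM at 3 months (-0.69 ± 0.16, adjusted p = 0.0266). Both were without overlap, but Atf3 lost the edgeR call in 5 of 7 fits without 1 library and Zfp36 in 4.

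Klf6, the member that was called higher, had 1759, 974, 1396 and 1302 CPM at 10 months and 762, 948 and 742 CPM at 3 months. The lowest 10 month library, replicate 2, was only just above the highest 3 month library, and the log2 fold change of 0.73 ± 0.16 (edgeR adjusted p = 0.0235) lost its call in 5 of 7 fits. Fos had 984, 715, 1004 and 893 CPM at 10 months and 905, 777 and 724 CPM at 3 months, and Jun had 2605, 1820, 2407 and 1955 CPM at 10 months and 1969, 1835 and 2416 CPM at 3 months. Both genes overlapped between the ages, with log2 differences of 0.17 ± 0.13 and 0.08 ± 0.14 (edgeR adjusted p = 0.587 and 0.817). Junb had 579.8, 586, 567 and 983 CPM at 10 months and 1227, 743 and 816 CPM at 3 months, with 10 month replicate 4 inside the 3 month range (-0.45 ± 0.20, adjusted p = 0.269, edgeR). Egr1 had 1826, 1324, 1744 and 1517 CPM at 10 months and 2100, 1762 and 1879 CPM at 3 months, overlapping (-0.26 ± 0.12, adjusted p = 0.312, edgeR). Nr4a2 differed by -1.55 ± 0.49 on the log2 scale, the largest in size after Nr4a1 among the members tested, and was not called (edgeR adjusted p = 0.103).

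**Figure D4:**
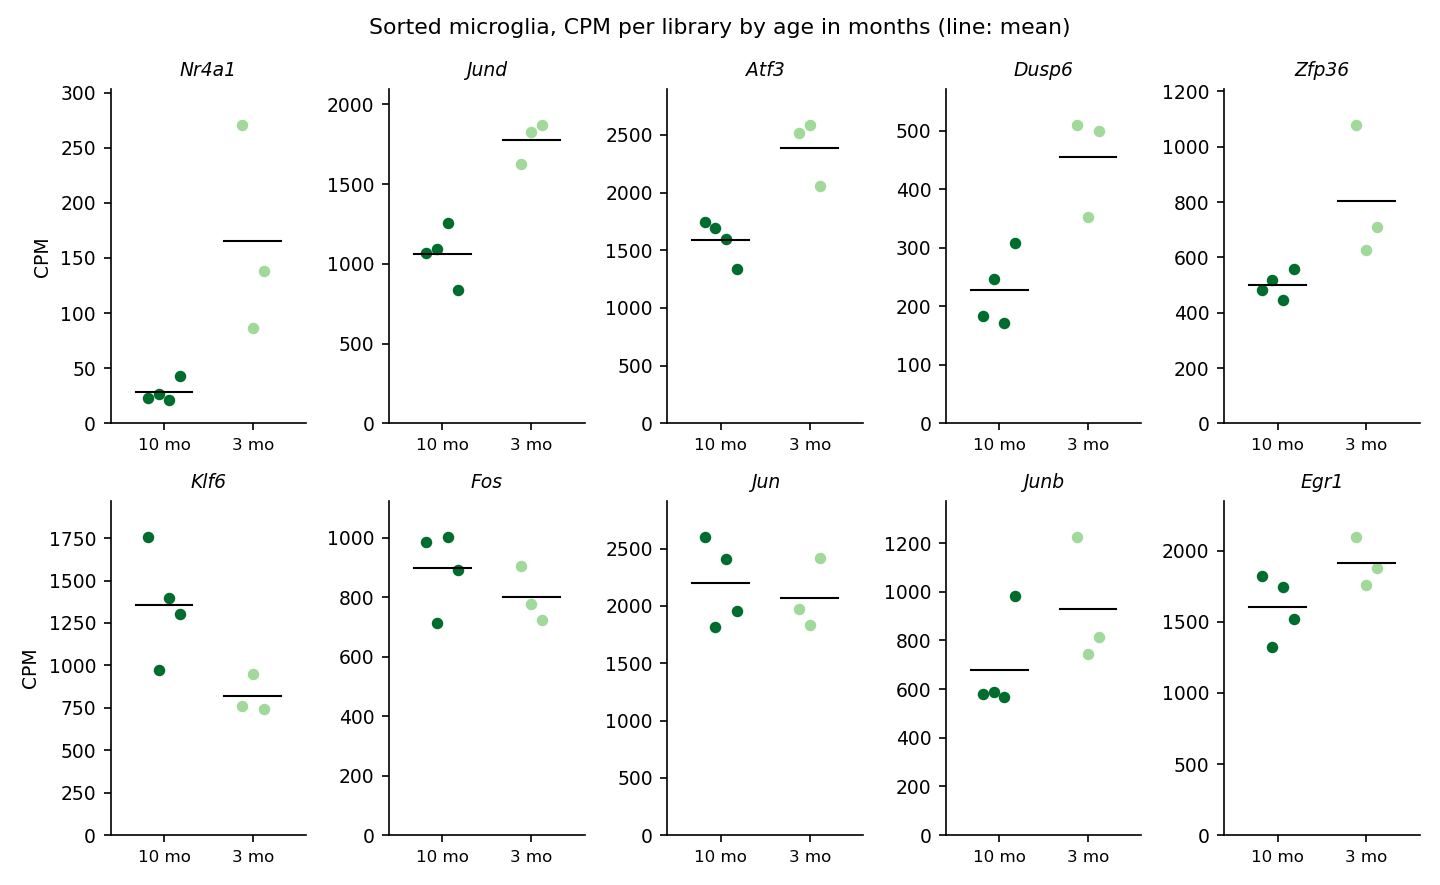
TMM-scaled CPM (vertical axes, own scale for each gene) of 10 members in each microglia library, at 10 months and at 3 months; points are libraries and lines are group means. Nr4a1 lies at 21.0 to 43.0 CPM at 10 months and 86.7 to 271 CPM at 3 months, and Fos, Jun, Junb and Egr1 overlap between the ages.

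Microglia markers summed to 37360, 32500, 36290 and 44060 CPM at 10 months and 25170, 30770 and 29030 CPM at 3 months, with 2 of 10 called higher, and macrophage markers to 268, 222, 291 and 284 CPM at 10 months and 306, 249 and 161 CPM at 3 months. By edgeR, the endothelial marker Flt1 (1.59 ± 0.30, adjusted p = 0.0121) and the astrocyte marker Slc1a2 (1.07 ± 0.25, adjusted p = 0.0298) were called higher. So was the precursor marker Cspg4 (4.29 ± 1.03, adjusted p = 0.0336). The other endothelial, astrocyte and precursor markers tested, and all oligodendrocyte markers, were not called. The part of these markers in the members' values was not tested. Of the other pathway genes, edgeR called Irf1 (-0.65 ± 0.15, adjusted p = 0.0267), the MAP kinase ERK1 gene Mapk3 (-0.60 ± 0.16, adjusted p = 0.0496) and the phosphatase Dusp7 (-0.67 ± 0.17, adjusted p = 0.045) lower, and 0 higher on those lists. Of 12 chaperones 3 were lower, Hspa1b (-1.86 ± 0.28, adjusted p = 0.00431), Hspa1a (-1.43 ± 0.22, adjusted p = 0.00431) and Hsp90aa1 (-0.80 ± 0.16, adjusted p = 0.0143), and 0 higher. Whether the chaperones and the members share a source was not tested.

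The difference between the cell types was tested directly, in 1 fit of the 6 astrocyte and 7 microglia libraries of 3 and 10 months. The age effect in astrocytes minus that in microglia was called higher for 6 of 30 members and lower for 1 by edgeR, against 0.712% and 3.41% of all genes; at an unadjusted p under 0.05 the counts were 18 and 3, and by DESeq2 14 and 1. In this fit the median over all genes was -0.22, and -0.07 with RLE scaling, so the members' median of 0.84 is best read against that shift. Nr4a1 had the largest called difference (3.25 ± 0.49, adjusted p = 0.00429), followed by Junb (1.98 ± 0.38, adjusted p = 0.0114), Egr1 (1.60 ± 0.27, adjusted p = 0.00698), Zfp36 (1.41 ± 0.26, adjusted p = 0.00929), Ier2 (1.41 ± 0.29, adjusted p = 0.0148) and Fos (1.05 ± 0.25, adjusted p = 0.0286), as edgeR log2 differences. Zfp36 had 54.5 and 59.1 CPM at 10 months and 29.8, 34.8, 34.9 and 28.8 CPM at 3 months in astrocytes, and Ier2 had 63.2, 54.9, 54.3 and 55.3 CPM at 10 months and 54.9, 38.7 and 49.0 CPM at 3 months in microglia. Klf6 differed in the other direction (-1.13 ± 0.26, adjusted p = 0.0238, edgeR). Without 10 month astrocyte replicate 2 the higher count was 2, and the call on Klf6 was lost without any 1 of the 6 astrocyte libraries. In the same difference edgeR called the microglia markers C1qa (1.21 ± 0.24, adjusted p = 0.0131) and C1qc (1.33 ± 0.35, adjusted p = 0.0445) higher. Flt1 (-2.92), Slc1a2 (-1.80), Cldn11 (-1.92), Olig2 (-2.98) and Cspg4 (-4.42) were called lower. The other microglia, endothelial, astrocyte, oligodendrocyte and precursor markers were not called. The part of these markers in the members' values was not tested. The cell types also differ in library kit and tissue, and these cannot be told apart from the cell type.

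In cultured astrocytes Junb, Socs3, Ier3 and other members were lower with Omomyc than with vehicle in the fit that pairs replicates, and 0 members passed in the fit that does not. Without a replicate term edgeR called 0 of 32 members higher or lower, against 0% and 0.0186% of the 16119 genes tested; at an unadjusted p under 0.05, 1 was higher and 10 lower, and DESeq2 called 0 higher and 2 lower. Of the 32 members, 26 had a negative log2 fold change, with a median of -0.18 against a median near 0 over all genes. Libraries with the same replicate number deviated together, so the fit with a replicate term is given beside it: it called 10 members lower and 0 higher, against 1.84% and 2.23% of all genes. With 1 replicate pair left out, 9 to 11 members were called lower and 0 higher. Over all genes, 247 were then called lower without pair 1, 520 without pair 2 and 418 without pair 3, against 296 with all pairs. The higher calls over all genes were 319, 565 and 712 in that order, against 360. Calls rose in 2 of these fits although they hold fewer libraries, so the counts do not show that the members' calls are stable. Values of log2 fold change below are from the fit with the replicate term.

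Among the AP-1 genes, Junb had 71.2, 72.5 and 94.1 CPM with Omomyc and 108, 106 and 115 CPM with vehicle. The groups did not overlap, and the log2 fold change was -0.47 ± 0.07 (edgeR adjusted p = 0.0134). Fosl2 had 141, 134 and 148 CPM with Omomyc and 175, 162 and 189 CPM with vehicle, a log2 fold change of -0.31 ± 0.05 (edgeR adjusted p = 0.0196). Fosl1, the other FOS-related subunit, had 3.48, 3.81 and 5.78 CPM with Omomyc and 5.85, 5.93 and 7.70 CPM with vehicle, and the highest Omomyc library lay just below the lowest vehicle library (-0.59 ± 0.12, adjusted p = 0.0322, edgeR). Atf3 had 19.6, 20.4 and 32.4 CPM with Omomyc and 27.6, 32.5 and 38.2 CPM with vehicle. The Atf3 groups overlapped, with replicate 3 the highest of each, and within each pair Omomyc was lower (-0.46 ± 0.09, adjusted p = 0.0299, edgeR). Fos had 42.4, 39.6 and 58.3 CPM with Omomyc and 57.7, 51.5 and 63.8 CPM with vehicle, lower in 3 of 3 pairs and not called (-0.32 ± 0.07, adjusted p = 0.059, edgeR). Jun had 198, 192 and 191 CPM with Omomyc and 207, 188 and 191 CPM with vehicle, with a log2 difference of -0.01 ± 0.05 (edgeR adjusted p = 0.929).

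Npas4, a bHLH factor named for neuronal activity, had 9.65, 5.86 and 7.30 CPM with Omomyc and 17.8, 9.51 and 12.6 CPM with vehicle. The ranges overlapped by a narrow margin, each pair was lower with Omomyc, and the log2 fold change of -0.80 ± 0.09 (edgeR adjusted p = 0.00443) was the largest of the called members. Socs3 had 42.1, 40.2 and 39.0 CPM with Omomyc and 63.8, 54.1 and 54.1 CPM with vehicle, without overlap, a log2 fold change of -0.50 ± 0.06 (edgeR adjusted p = 0.00656). In the fit without the replicate term Socs3 had the smallest adjusted p of the members, 0.36 by edgeR. Ier3 had 15.5, 17.0 and 22.4 CPM with Omomyc and 24.4, 30.1 and 29.8 CPM with vehicle (-0.63 ± 0.09, adjusted p = 0.0112, edgeR). Dusp5, a nuclear ERK phosphatase, had 22.4, 22.1 and 22.3 CPM with Omomyc and 31.0, 34.2 and 28.4 CPM with vehicle (-0.48 ± 0.08, adjusted p = 0.0152, edgeR). Neither gene's groups overlapped. Klf2 and Gadd45g were also called lower, at -0.46 ± 0.08 (edgeR adjusted p = 0.0173) and -0.37 ± 0.07 (edgeR adjusted p = 0.0274) on the log2 scale. Klf2 had 16.6, 19.3 and 18.7 CPM with Omomyc and 22.8, 28.6 and 23.9 CPM with vehicle, and Gadd45g had 56.0, 59.8 and 55.9 CPM with Omomyc and 67.5, 86.3 and 69 CPM with vehicle. The groups of both were apart. Egr1 had 33.8, 27.6 and 35.4 CPM with Omomyc and 39.4, 30.0 and 37.3 CPM with vehicle, overlapping (-0.14 ± 0.07, adjusted p = 0.281, edgeR). Dusp6 was higher with Omomyc in 3 of 3 pairs, at 127, 125 and 131 CPM against 99.8, 113 and 119.7 CPM with vehicle, and was not called (0.21 ± 0.06, adjusted p = 0.12, edgeR).

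**Figure D5:**
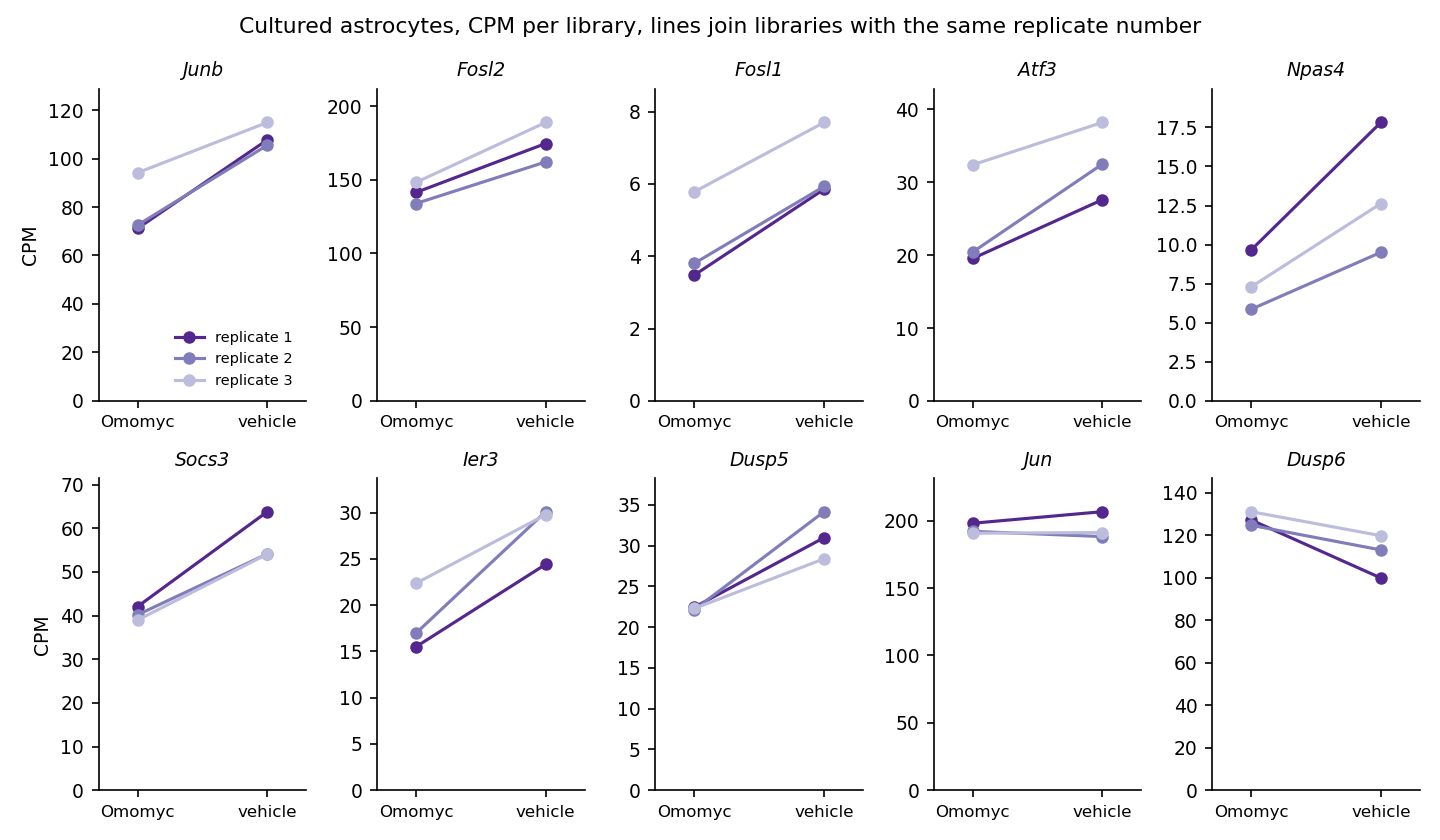
TMM-scaled CPM (vertical axes, own scale for each gene) of 10 members in cultured astrocytes with Omomyc (left) and vehicle (right); each line joins the libraries of 1 replicate number. The lines of Junb, Fosl2, Fosl1, Atf3, Npas4, Socs3, Ier3 and Dusp5 are lower at Omomyc in 3 of 3 pairs, those of Dusp6 higher in 3 of 3, and those of Jun go both ways.

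Of the 9 members called lower with the replicate term that have a promoter window, 1 (Gadd45g, shown above) holds the E-box CACGTG, and of the 18 other members with a window 6 hold it. Among other primary response genes, the fit with the replicate term called 10 of 30 lower and 1 higher, with the smallest p-values for Vgf (-1.49 ± 0.09, adjusted p = 0.000512), Nfkbiz (-0.64 ± 0.07, adjusted p = 0.00465) and Csrnp1 (-0.57 ± 0.07, adjusted p = 0.005), and Ptgs2 as the higher one (0.71 ± 0.07, adjusted p = 0.00328), by edgeR. Of 30 MAP kinase, SRF and CREB inputs 2 were higher and 0 lower, of 16 other feedback inhibitors 1 was higher (Dusp2, 1.3 ± 0.26, adjusted p = 0.0346) and 0 lower, and of 12 chaperones 1 was lower (Hspb1, -0.80 ± 0.10, adjusted p = 0.00568) and 0 higher. Microglia markers summed to 2066, 2406 and 3887 CPM with Omomyc and 1801, 2107 and 3112 CPM with vehicle, and 5 of 10 were called higher in the same fit. So were 2 of 10 astrocyte markers (Slc1a2 and Slc4a4), 2 of 8 endothelial markers (Flt1 and Slco1a4), 1 of 9 oligodendrocyte markers (Mbp, 0.58 ± 0.07, adjusted p = 0.00421) and 1 of 5 oligodendrocyte precursor markers (Gpr17, 1.47 ± 0.18, adjusted p = 0.00535), by edgeR. Of 8 neuron markers 1 was called lower (Tubb3), and they summed to 169, 174 and 161 CPM with Omomyc and 196, 224 and 176 CPM with vehicle. The part of these markers in the members' values was not tested.

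Across the sorted cells, Nr4a1 was called in each cell type, higher in astrocytes at 10 against 3 months (0.80) and in oligodendrocytes at 6 against 3 months (1.43), and lower in microglia at 10 against 3 months (-2.53), as log2 fold changes. Zfp36 had the same directions (0.83, 0.83 and -0.69), and Atf3 was called in oligodendrocytes (1.60) and microglia (-0.58) in opposite directions. Of the 28 members tested in astrocytes, those whose groups did not overlap numbered 18 all higher and 1 all lower at 10 against 3 months (24% and 21.5% of all genes tested), 17 and 0 at 10 against 6 months (12.4% and 10.7%), and 1 and 0 at 6 against 3 months (5.68% and 7.41%). They numbered 20 and 0 of 27 in oligodendrocytes (14.7% and 11.8% of all genes tested), 1 and 5 of 28 in microglia (8.64% and 8.12%), and 1 and 10 of 32 in culture (6.23% and 6.6%). Several members share their locus with a gene on the other strand: Jun with Junos, Junb with Prdx2, Zfp36 with Gm44710, Dusp1 with Ergic1, Fosl1 with Ccdc85b, Atf3 with Gm24748, Dusp5 with AC137853.2 and Jund with Gm11175. No label states how the counting treated strand, so reads of such pairs may have been assigned to either gene. Jund had at most 0.44 CPM in any sorted astrocyte or oligodendrocyte library. On the scales of their own tables it had 1628 to 1871 CPM in 3 month microglia and 207 to 289 CPM in vehicle cultures. Its absence from the tests in astrocyte and oligodendrocyte sorts cannot be told apart from such a loss of reads.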

How the data were processed

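Poly(A) RNA of sorted or cultured TDP-43_Q331K glia was sequenced, per the labels' protocols, with Lexogen CORALL libraries with molecular identifiers (astrocytes, oligodendrocytes), Lexogen QuantSeq 3' libraries (microglia) and Watchmaker libraries with Twist identifiers (culture). Among the tools in the submitters' processing notes are UMI-tools 1.0.1 and the aligner STAR 2.7.7a, with featureCounts 2.0.1 for counting, and DESeq2 beside fastp. Builds listed there are mm10, GRCm38.p6 and GRCm39; which table used which is not stated. The raw counts per gene were deposited by the authors and were analysed as deposited; the deposited TPM values were used only to compare levels between genes. Counts were tested with edgeR 4.0.16 (R 4.3.3; TMM scaling, filterByExpr with a minimum count of 10, robust quasi-likelihood fit with 1 mean per group, all ages of a table in 1 fit), and adjusted p-values are Benjamini-Hochberg over all genes tested, with calls at an adjusted p under 0.05. Standard errors are the size of the log2 fold change over the square root of F. Each table was scaled on its own, except for 2 joint fits of tables that compare cell types. The pipeline was tested on simulated data with known changes.

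The members, gene lists and tests were chosen with earlier results of these data known. Values in every library are given for up to 8 called members each way with the smallest p in each comparison, and for Fos, Jun, Junb and Egr1 in each cell type; groups of over 5 libraries are given by their lowest, median and highest value. Members named with values outside this rule were chosen after their values were seen; these include Klf6 in sorted astrocytes, Maff in oligodendrocytes, and Atf3, Fosl1 and Dusp6 in culture. In culture, deviations of libraries with the same replicate number correlated across genes at 0.628, 0.432 and 0.681 and those with different numbers at -0.527 to -0.05, so these numbers were taken to pair the libraries; the labels do not say what a number marks. DESeq2 1.42.0, other scaling, other filters, a replicate term, a fit without CT010467.1, Lars2, Malat1 and mitochondrial genes, and fits without each library were the alternatives. Member positions come from GENCODE and promoter windows from RefSeq on GRCm38.p6. No libraries of a group agreed within sampling noise.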

Additional observations from a re-analysis of the deposited data

Results flagged for a closer look

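For 138 groups of 4 or 5 libraries, the highest or lowest library's gap to its nearest neighbour was compared with the group's range by Dixon's test, which chance flags in about 1 of 20 groups; 15 were flagged. In 6 month astrocytes, replicate 2 was low for Btg2 (23.4 CPM), Egr3 (0.320 CPM), Ier2 (3.69 CPM) and Jun (101 CPM), replicate 5 was low for Gadd45g (16.4 CPM) and replicate 1 was high for Ier3 (4.65 CPM). In 3 month astrocytes, replicate 3 stood apart for Dusp1 (64.4 CPM). In 6 month oligodendrocytes, replicate 3 was high for Dusp6 (4.77 CPM) and Zfp36 (152 CPM) and replicate 1 for Maff (11.6 CPM), and in 3 month oligodendrocytes Gadd45g stood apart in replicate 4 (1.85 CPM) and Junb in replicate 1 (50.4 CPM). In 10 month microglia, Ier2 stood apart in replicate 1 (63.2 CPM), and Junb (983 CPM) and Socs3 (60.3 CPM) in replicate 4.

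The difference of age effects passed edgeR's test for 8 members between astrocytes and oligodendrocytes, with log2 values of -2.39 for Fosl2, -2.84 for Klf2, -2.39 for Klf4, -1.39 for Nr4a1, -2.25 for Nr4a2, -0.92 for Btg2, -0.83 for Dusp1 and -1.50 for Atf3. Between astrocytes and microglia it passed for 7 members, with 3.25 for Nr4a1, 1.60 for Egr1, 1.41 for Zfp36, 1.98 for Junb, 1.41 for Ier2, -1.13 for Klf6 and 1.05 for Fos. Their adjusted p-values stand in the report.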

How the results depend on the processing

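With no filter on low counts, 4 members were called higher in astrocytes at 6 against 3 months, 1 lower in oligodendrocytes, 3 higher in microglia and 14 higher in the difference of age effects between astrocytes and microglia, and the value for Jun in the difference between astrocytes and oligodendrocytes turned to 0.008. DESeq2 called 3 members higher in microglia, 2 lower in culture and 14 higher in the difference between astrocytes and microglia. RLE scaling called 0 lower in that difference. In the sorted tables the replicate numbers did not pair the libraries (correlations of deviations from -0.198 to 0.174); a replicate block there left 0 lower in astrocytes at 6 against 3 months, 0 higher in microglia and 0 in either direction in the difference between astrocytes and microglia, and gave -0.257 for Fos and -0.123 for Egr1 at 6 against 3 months. In culture, where they did, the replicate block gave 10 lower. The cause of these shifts was not tested. Without 1 library, higher calls numbered 6 to 15 in astrocytes at 10 against 3 months, 0 to 8 at 10 against 6 and 0 to 5 at 6 against 3 (lower 0 to 1), 15 to 20 in oligodendrocytes, 0 to 3 in microglia (lower 2 to 5), 2 to 8 in the difference between astrocytes and microglia (lower 0 to 1), and lower calls 6 to 11 in that between astrocytes and oligodendrocytes; culture gave 0. At 6 against 3 months in astrocytes the log2 value ran from -0.183 to 0.213 for Fos and -0.080 to 0.391 for Egr1, and that of Jun from -0.219 to 0.044 in oligodendrocytes, -0.008 to 0.217 in microglia, -0.039 to 0.030 in culture and -0.127 to 0.117 in the difference between astrocytes and oligodendrocytes. The split of all genes into higher and lower calls moved with the setting: 93 and 54 in astrocytes at 10 against 6 months, 75 and 70 with RLE; 2096 and 1329 in oligodendrocytes, 1829 and 1795 without CT010467.1, Lars2, Malat1 and mitochondrial genes and 1796 and 1771 with a filter at 1 CPM; 113 and 541 in the difference between astrocytes and microglia, 166 and 282 with RLE. The 10 month astrocyte group holds 2 libraries, which limits every value at that age.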
